A study of Mus musculus with 13 samples.

Results

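Acta2, Tagln, Myh11, Cnn1, Des, Actg2, Lmod1 and Myocd are genes of the smooth muscle contractile programme, and Pdgfrb and Cspg4 mark pericytes. These 10 genes were taken by exact symbol from the 32544 gene symbols counted in mouse lung, and all 10 were among the 12496 genes with enough counts to be tested. The lungs came from wild-type (WT) male C57BL/6J mice, 7 weeks old at purchase, which breathed either 21% oxygen (Normoxia, 7 libraries) or 80% oxygen (Hyperoxia, 6 libraries) for 5 days. The labels give no other allele or agent for either group, and the tissue was whole lung, perfused with cold DPBS and frozen. RNA was read by Quant-seq, which counts the 3′ ends of polyadenylated transcripts. Levels are given as CPM, a gene's count relative to the total of its library on a common scale, after correction of the totals by the trimmed mean of M values (TMM). In whole lung, fewer cells of a type and less RNA per cell cannot be told apart.

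Smooth muscle cells of airways and vessels contract when myosin motors pull on actin filaments anchored to the membrane and held together by intermediate filaments. Serum response factor (SRF) binds the CArG box, a short promoter element, and its partner myocardin switches on the contractile genes through it. Pericytes sit on capillaries inside the endothelial basement membrane and depend on PDGF signals from the endothelium. Neither set of genes is exclusive to its cells, since Cspg4 is also made by vascular smooth muscle and desmin also by pericytes.

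In hyperoxia 3 of the 8 contractile genes rose, where 11.8% of all genes tested were higher. The members were chosen with earlier results of these data known, so this contrast is only a description. Des increased 1.94-fold, Acta2 1.70-fold and Cnn1 1.64-fold, while Tagln, Actg2, Lmod1, Myh11 and Myocd did not pass the test. The call of Cnn1 was lost in 7 of the 13 fits that left out a library. Neither of the 2 pericyte members passed the test, where 22.6% of all genes tested passed in either direction.

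CArG sequences near the start sites of Acta2, 2 other actin genes and Srf are shown as a description. Their part in the changes of these genes was not tested. The search covered RefSeq promoter windows (GRCm38.p6) of 300 bases, from 250 before to 50 after a start site, for CC, 6 middle bases and GG, a motif that reads alike on both strands. With A or T required at all 6 middle bases it was found in 1.63% of 32851 windows, and in 9.98% when 1 middle base was allowed to be C or G. Windows were given for 5 of the 10 members (Acta2, Cnn1, Des, Lmod1 and Cspg4). Of these only Acta2 held the relaxed form, at 2 places, and 0 held the strict form. No window was given for Actb, and sequence outside the windows was not searched. In the sequences below, read 5′ to 3′ on the minus strand, capitals mark the box.
Acta2, 84 bases before the start, chr19:34255438-34255467: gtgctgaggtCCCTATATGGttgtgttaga
Acta2, 34 bases before the start, chr19:34255388-34255417: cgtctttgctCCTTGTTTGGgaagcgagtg
Actc1, 175 bases before the start, chr2:114053031-114053060: ctccctagctCCCTATATGGccattgctct
Actc1, 47 bases before the start, chr2:114052903-114052932: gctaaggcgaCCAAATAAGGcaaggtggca
Actg1, 90 bases before the start, chr11:120348566-120348595: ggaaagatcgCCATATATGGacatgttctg
Srf, 82 bases before the start, chr17:46556225-46556254: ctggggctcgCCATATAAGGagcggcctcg
The Actc1 window held 4 relaxed boxes, of which 1 was strict, the one 47 bases before the start. The farther Acta2 box shared all 10 letters with the Actc1 box farthest from the start. The Srf window held 2 strict boxes, of which 1 is shown. Both Acta2 boxes lay before the RefSeq start but within exon 1 of the longer GENCODE M21 model of the gene (chr19:34255290-34255590), whereas the Actc1, Actg1 and Srf boxes shown lay in no GENCODE exon of their gene. A match to these letters is a description of sequence and not evidence of binding.

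Total counts ran from 1607111 to 4540288 per library. Surfactant protein C (Sftpc), the defining transcript of alveolar type II cells, was present in every library, at 5066 to 13578 CPM in Normoxia and 32.7 to 2915 CPM in Hyperoxia. One library, Hyperoxia replicate 1, stood apart. Its mean correlation with the other libraries was 0.779, against 0.886 to 0.919 for the rest, and 76 genes with a median of at least 20 CPM in the other libraries had no count in it, against 1 to 7 such genes in any other library. Main results over all libraries that rest on it are given with and without it, as are some within library sets. The libraries also fall into 2 sets by the letter that opens their sequencing name, B to M (5 Normoxia, 3 Hyperoxia) and O to S (2 Normoxia, 3 Hyperoxia). What the letters stand for is not given in the sources used here, and values within each set follow below.

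**Figure D1:**
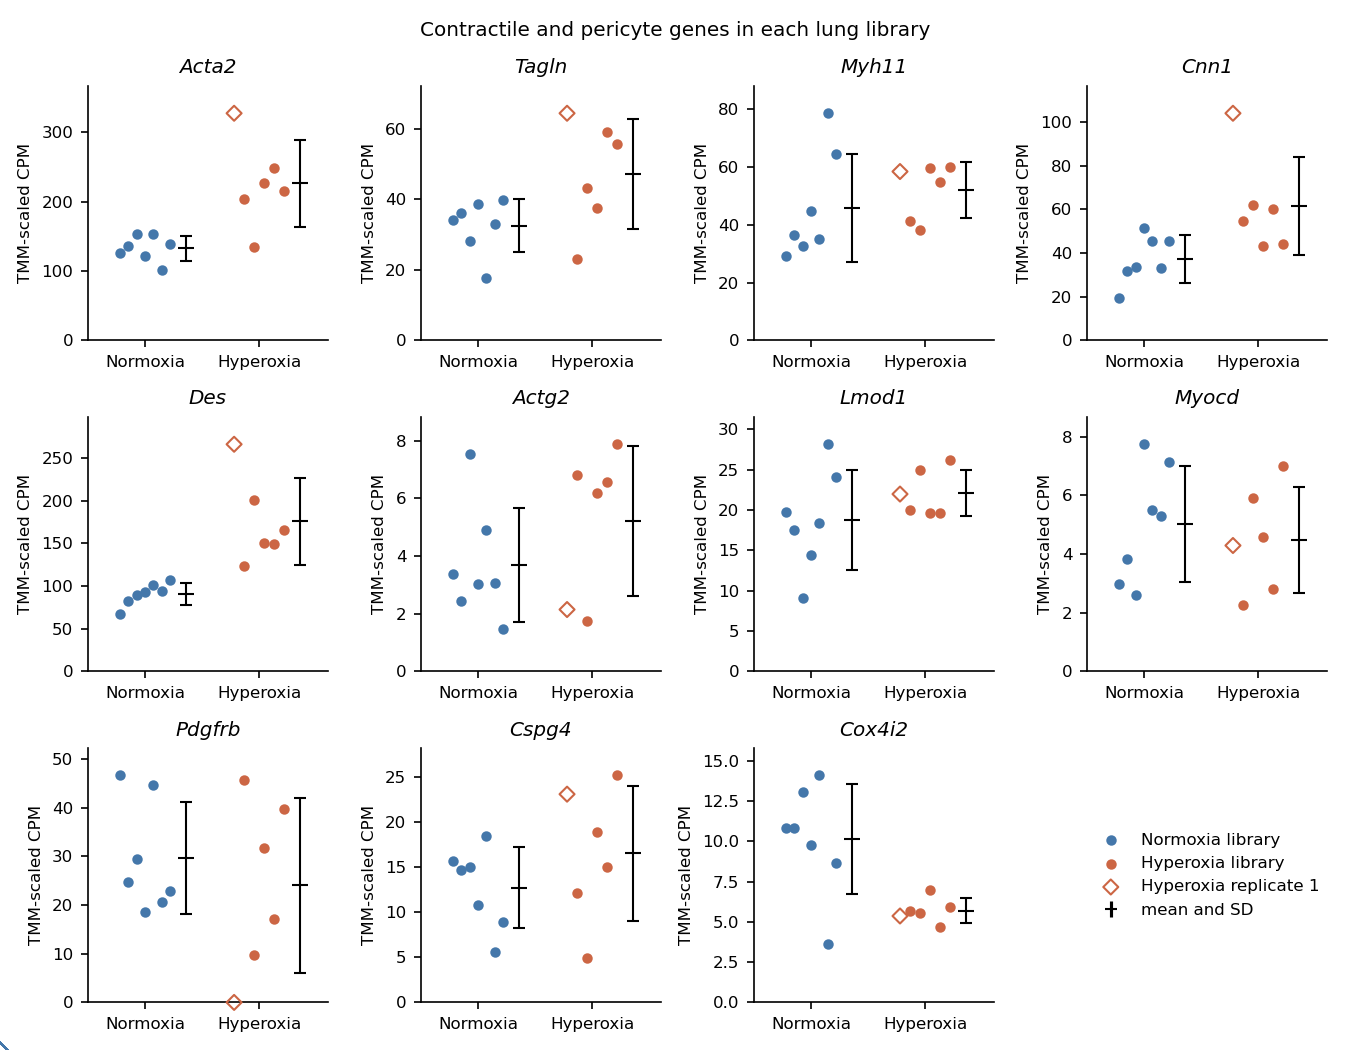
Each point is 1 lung library and the vertical axis is its TMM-scaled CPM, from 0, with the mean and SD of each condition to the right of its points and Hyperoxia replicate 1 as an open diamond. Des separates the conditions completely, Acta2 does so except for 1 hyperoxic library, and Pdgfrb spans 0 to 45.7 CPM in Hyperoxia.

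Des encodes desmin, the muscle-type intermediate filament that ties contractile bundles to dense bodies and the membrane (chr1:75360329-75368579, plus strand). Its lowest, median and highest Normoxia values were 66.8, 92.8 and 106 CPM, and those in Hyperoxia were 123, 158 and 266 CPM. All hyperoxic libraries therefore lay above all normoxic ones, and Des was the only member of which this was true. Such separation upward was found for 5.6% of all genes tested and downward for 5.23%. The log2 fold change was 0.96 (SE 0.17), with an adjusted p of 0.000973 by edgeR's quasi-likelihood test with Benjamini-Hochberg adjustment over all genes. Without Hyperoxia replicate 1, the library with the highest value, it was 0.80, and Des passed the test in all 13 fits that left out a single library. Desmin is also made by cardiac muscle, so its level is given again below beside the cardiac markers. Gm15179 lies on the other strand across Des, a limit taken up below with Tagln.

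Acta2 encodes smooth muscle α-actin, the main thin-filament actin of contractile cells (chr19:34241090-34255590, minus strand). Normoxia values were 102, 136 and 153 CPM at the lowest, median and highest library, and Hyperoxia values were 135, 221 and 328 CPM. In Hyperoxia 5 of 6 libraries exceeded every normoxic one, the exception being replicate 3. The means were 133 ± 18.2 CPM (SD, n = 7) and 226 ± 62.9 CPM (SD, n = 6), and hyperoxic libraries were the more spread. Acta2 rose by 0.77 on the log2 scale (SE 0.17, adjusted p = 0.00485, edgeR). The change was between 0.64, without Hyperoxia replicate 1, and 0.88 when single libraries were left out, and passed the test in all 13 of those fits.

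Cnn1 encodes calponin, an actin-binding protein that restrains myosin ATPase activity (chr9:22099216-22109630, plus strand). Its values were 19.4, 33.7 and 51.5 CPM in Normoxia and 43.1, 57.6 and 104 CPM in Hyperoxia. The groups overlapped, with 4 of 6 hyperoxic libraries above all normoxic ones. The log2 fold change of 0.72 (SE 0.24) passed the test by a small margin (adjusted p = 0.0403, edgeR). It did not pass when Normoxia replicate 1, 2, 3 or 6 or Hyperoxia replicate 1, 3 or 5 was left out (adjusted p = 0.0598 to 0.0782, edgeR), and without Hyperoxia replicate 1 it was 0.51.

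Tagln encodes transgelin (SM22α), an actin-crosslinking protein of smooth muscle (chr9:45929619-45936058, minus strand). Its values of 17.8, 34.0 and 39.8 CPM in Normoxia compared with 23.1, 49.4 and 64.3 CPM in Hyperoxia. As for Cnn1, 4 of 6 hyperoxic libraries lay above all normoxic ones, but replicate 2 was the second lowest of the 13 libraries. The log2 fold change was 0.53 (SE 0.23) and did not pass the test (adjusted p = 0.115, edgeR). Without Hyperoxia replicate 2 it was 0.70 and passed (adjusted p = 0.0252, edgeR). Pcsk7 and the predicted gene Gm48529 lie on the other strand across Tagln, as does Gm15179 across Des and Gm22796 across Lmod1. Whether reads were assigned by strand is not given in the sources used here, so reads of these genes may be shared.

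Myh11, the smooth muscle myosin heavy chain and the most specific of these markers, showed no detectable difference. Its lowest, median and highest values were 29.1, 36.3 and 78.6 CPM in Normoxia, compared with 38.2, 56.6 and 59.9 CPM in Hyperoxia. The highest values were those of Normoxia replicates 6 and 7, so that the hyperoxic libraries fell inside the normoxic range. The log2 fold change was 0.18, with a 95% interval from -0.32 to 0.67 (adjusted p = 0.635, edgeR). Lmod1, leiomodin 1, which nucleates actin filaments in smooth muscle, had values of 9.16, 18.4 and 28.2 CPM in normoxic and of 19.7, 21.0 and 26.2 CPM in hyperoxic lungs. Hyperoxic Lmod1 values also lay within the normoxic range (log2 fold change 0.23, 95% interval -0.24 to 0.71).

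Actg2 and Myocd were counted at low depth. Actg2, the smooth muscle γ-actin best known from gut and bladder, had between 4 and 36 counts per library, and 1.49, 3.07 and 7.52 CPM in Normoxia against 1.74, 6.38 and 7.87 CPM in Hyperoxia. Of the hyperoxic libraries, replicates 1 and 3 lay below the normoxic median and the other 4 above it. Its log2 fold change of 0.55 had an interval from -0.32 to 1.42. Myocd, which encodes myocardin itself, had between 6 and 32 counts per library. Myocd ranged from 2.62 to 7.74 CPM in Normoxia (median 5.30) and from 2.27 to 7.00 CPM in Hyperoxia (median 4.43), and the groups overlapped. At this depth its log2 fold change of -0.15 (95% interval -0.87 to 0.57, adjusted p = 0.800, edgeR) allows a change of either sign.

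**Figure D2:**
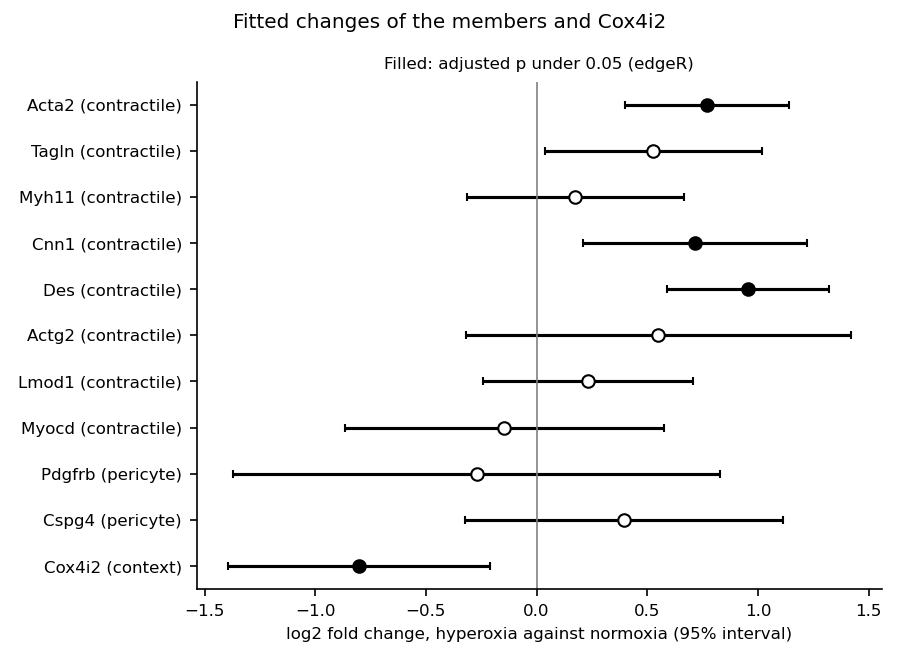
Points are log2 fold changes of Hyperoxia against Normoxia from edgeR with 95% intervals, filled where the adjusted p was under 0.05. Des, Acta2 and Cnn1 are filled to the right of 0, the other contractile genes and both pericyte members have open points, and Cox4i2 is filled to the left.

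Of the 8 contractile members, 3 were therefore higher (Des, Acta2, Cnn1) and 0 lower, and 7 had a log2 fold change above 0. Over all genes tested 22.6% passed the test in either direction, 11.8% higher and 10.8% lower. Tagln was the only further contractile gene with an unadjusted p under 0.05. The median log2 fold change of the 8, which were chosen with earlier results known, was 0.54, against -0.03 over all genes tested. Without Hyperoxia replicate 1 the numbers were 2 higher (Des, Acta2) and 0 lower, with a median of 0.46, when 14.8% of genes tested were higher and 13.9% lower. Of all genes passing the test, 52.25% were higher with TMM scaling and 42.75% with scaling by library size alone in edgeR. With limma on the deposited logarithmic values, which changes the test as well as the scaling, 38.82% were higher and the median of all genes was -0.16. Des and Acta2 were higher and passed the test in all of these, with Acta2 at 0.65 in the last.

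After removal of each group's mean, the correlation between pairs of the 8 genes across the 13 libraries had a median of 0.22 and ranged from -0.58 (Des with Actg2) to 0.78 (Des with Cnn1), and 19 of 28 pairs were above 0. Without Hyperoxia replicate 1 the median was 0.07 with 14 of 28 above 0. Acta2 followed the pericyte member Cspg4 (0.82, and 0.83 without that library) more closely than any contractile gene. These are descriptions over libraries that share depth and tissue composition.

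Of the pericyte members, Pdgfrb encodes the PDGF receptor β, by which pericytes answer endothelial PDGF-B. Its lowest, median and highest values were 18.5, 24.8 and 46.7 CPM in Normoxia, and 0, 24.5 and 45.7 CPM in Hyperoxia. The library with 0 counts was Hyperoxia replicate 1, in which a count of 3, the upper limit that a count of 0 allows, equals 1.61 CPM. The other hyperoxic libraries extended below and almost to the top of the normoxic range, with 3 of 6 below every normoxic library. The log2 fold change was -0.27 (SE 0.52, adjusted p = 0.757, edgeR), and -0.02 without Hyperoxia replicate 1. That limit covers counting error only, whereas the SE and intervals of fold changes include the spread between libraries.

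Cspg4 encodes NG2, a surface proteoglycan of pericytes and of vascular smooth muscle. Its values were 5.57, 14.7 and 18.4 CPM in Normoxia and 4.86, 16.9 and 25.1 CPM in Hyperoxia. Hyperoxic libraries included both the lowest and the highest value. The log2 fold change was 0.39 (SE 0.34, adjusted p = 0.446, edgeR). Thus 0 of the 2 pericyte members passed the test, where 22.6% of all genes tested did, and 2 genes are too few to compare with that share. Of these 2, 0 had an unadjusted p under 0.05, and 0 passed with DESeq2, limma-voom or limma on the logarithmic values.

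Cox4i2, an isoform of a cytochrome c oxidase subunit that marks lung pericytes, is no member but was read beside them. Normoxic values were 3.62, 10.8 and 14.1 CPM, and hyperoxic values were 4.69, 5.61 and 7.00 CPM. Normoxia replicate 6 held the lowest value of all, and the other 6 normoxic libraries lay above all hyperoxic ones. Its fall by 0.80 on the log2 scale had an adjusted p of 0.0489 (edgeR). With the library set as a term the change was -0.66 (adjusted p = 0.113, edgeR), and it was small in set O to S. The call held in 1 of the 13 fits with a library left out, that without Normoxia replicate 6 (-0.94, adjusted p = 0.00707, edgeR), and in 3 of 11 other settings. Without Hyperoxia replicate 1 the adjusted p was 0.0538 (edgeR).

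Contractile and pericyte genes were also compared within each library, by a ratio of counts that no scaling of libraries can move. The log2 ratio of Acta2 to Pdgfrb (0.5 added to each count) was between 1.44 and 2.70 in Normoxia, and between 2.15 and 3.84 in the 5 hyperoxic libraries with Pdgfrb counts. Hyperoxia replicate 1 had 10.3, a value set by its 0 count and the 0.5 added. The mean difference between the groups was 1.99 (two-sided exact permutation test over 1716 assignments, p = 0.0181, where the smallest p is 0.000583). It was 0.78 without Hyperoxia replicate 1 (exact permutation test, p = 0.0619), so the call rests on that library, and it was also lost without Normoxia replicate 1 or 5 (both p = 0.0649, exact permutation test).

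For Acta2 to Cspg4 the log2 ratio ran from 3.00 to 4.16 in Normoxia and from 3.09 to 4.74 in Hyperoxia. The groups overlapped and the difference of 0.44 did not pass the test (exact permutation test, p = 0.138). Leaving out Hyperoxia replicate 6 gave 0.60 (exact permutation test, p = 0.0429). Whether either ratio passed thus depended on single libraries. The log2 ratio of Acta2 to Cox4i2, given with no test, was 3.78 ± 0.468 (SD, n = 7) in Normoxia and 5.23 ± 0.476 (SD, n = 6) in Hyperoxia, with overlapping groups, a difference of 1.45, or 1.33 without Hyperoxia replicate 1.

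**Figure D3:**
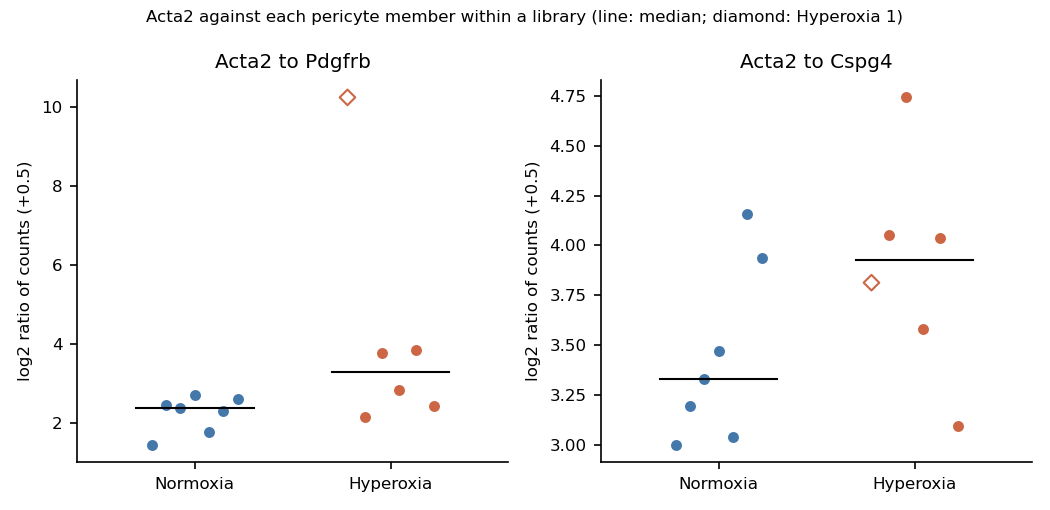
The vertical axis is the log2 ratio of Acta2 counts to Pdgfrb (left) or Cspg4 (right) counts in each library, with 0.5 added to each count, lines at the medians and Hyperoxia replicate 1 as a diamond. The diamond at 10.3 in the left panel stands far above all other libraries, and the groups overlap in both panels.

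Within the library sets, Des and Acta2 were higher in hyperoxia in both. In set B to M the log2 fold change of Des was 1.25 and in set O to S 0.62, and both passed the test. Acta2 had 0.77 in B to M (adjusted p = 0.113, edgeR) and 0.93 in O to S (adjusted p = 0.00830, edgeR). Cnn1 had 1.09 and 0.30, passing in neither. Tagln (0.56 and 0.47) and Myocd (-0.05 and -0.36) kept their sign in both sets without passing in either, while Myh11, Lmod1, Actg2, Pdgfrb and Cspg4 were of opposite sign in the 2 sets. In B to M the average of Myh11 was 35.6 CPM under normoxia and 45.9 CPM under hyperoxia, but in O to S the averages were 71.6 and 58.0 CPM. Lmod1 likewise had averages of 15.9 and 22.3 CPM in B to M and 26.1 and 21.9 CPM in O to S. For Cspg4 the averages were 14.9 and 13.3 CPM in B to M, where the hyperoxic average was 8.48 CPM without Hyperoxia replicate 1. In O to S they were 7.25 and 19.7 CPM, and Cspg4 passed the test there (log2 fold change 1.43, adjusted p = 0.0196, edgeR). Actg2 also passed in O to S alone, with 1.56 (adjusted p = 0.0423, edgeR) against -0.18 in B to M. In B to M it averaged 4.25 CPM under normoxia and 3.56 CPM under hyperoxia, or 4.27 CPM without Hyperoxia replicate 1. Its lower average there thus rested on that library. Pdgfrb averaged 32.8 and 18.5 CPM in B to M, where the hyperoxic average was 27.7 CPM without Hyperoxia replicate 1, and 21.8 and 29.6 CPM in O to S. Cox4i2 had a log2 fold change of -1.01 in B to M (adjusted p = 0.0731, edgeR) and of -0.06 in O to S (adjusted p = 0.930, edgeR). In the Acta2 to Pdgfrb ratio the difference was 3.25 in B to M (exact permutation test, p = 0.0714), 0.82 there without Hyperoxia replicate 1 (p = 0.238, exact permutation test), and 0.59 in O to S (p = 0.4, exact permutation test). The Acta2 to Cspg4 ratio differed by 1.00 in B to M (p = 0.0179, exact permutation test) and by -0.48 in O to S (p = 0.3, exact permutation test). The exact test cannot give a p below 0.1 in O to S, so no ratio could have passed in that set. The difference between the sets was not itself tested.

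**Figure D4:**
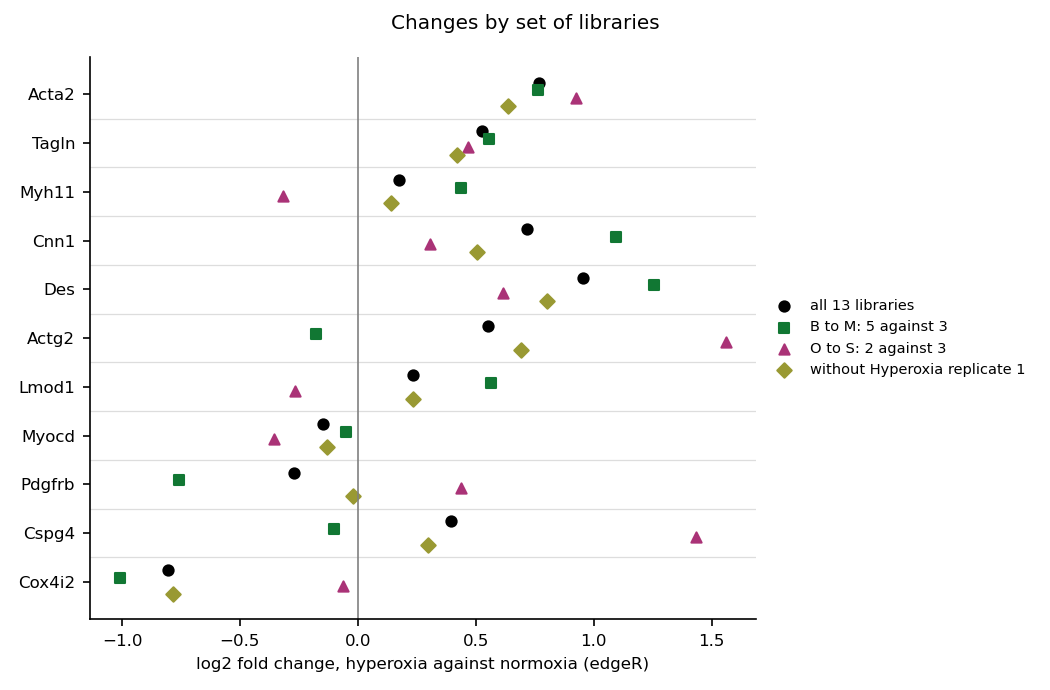
Each row is a gene and each symbol its log2 fold change (edgeR) over all 13 libraries, within set B to M, within set O to S, or without Hyperoxia replicate 1. Acta2, Tagln, Cnn1 and Des stay to the right of 0 under all 4, while Myh11, Actg2, Lmod1, Pdgfrb and Cspg4 have the 2 sets on opposite sides.

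Of 35 other contractile and cytoskeletal genes of smooth muscle, 29 were tested, of which 5 were higher and 8 lower, against 11.8% and 10.8% of all genes tested, and the list's median was -0.06 on the log2 scale (6 higher and 8 lower without Hyperoxia replicate 1). Actn1, α-actinin 1, which crosslinks actin at dense bodies and adhesions, rose from 366 ± 60.0 to 1341 ± 434 CPM (1.87 on the log2 scale), where ± is the SD over the 7 normoxic and the 6 hyperoxic libraries here and for the genes that follow. Pdlim7, a scaffold that binds actinin, rose by 1.69 on the same scale. In contrast Itga8, the α8 integrin of contractile mesenchymal cells, fell from 101 ± 5.12 to 32.3 ± 8.20 CPM (log2 fold change -1.64), and Synm, synemin, an intermediate filament protein that pairs with desmin, fell from 136 ± 28.4 to 42.7 ± 7.81 CPM (-1.66). Synm thus moved opposite to Des, and its hyperoxic values of 32.7 to 51.6 CPM all lay below the lowest normoxic value of 97.5 CPM. Adjusted p-values for these genes were 4.3e-06 (Itga8), 5.8e-06 (Actn1), 8.2e-06 (Synm) and 0.00027 (Pdlim7) in edgeR.

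Among other pericyte genes, 6 of 15 tested (of 18 listed) were lower and 1 higher, against 10.8% and 11.8% of all genes tested, with a median of -0.64 (7 and 1 without Hyperoxia replicate 1). Rgs5, a regulator of G-protein signalling and a common pericyte marker, fell from 5.67 ± 2.58 to 1.42 ± 0.607 CPM (log2 fold change -1.95, adjusted p = 0.00180, edgeR). It had 146 counts in all libraries together, and its hyperoxic replicates 1, 2 and 4 held 3 counts or fewer, so the size of its change is poorly set. Vtn, which encodes vitronectin and is expressed by pericytes, fell by 2.09 on the log2 scale (adjusted p = 0.00384, edgeR) from 3.34 to 12.7 CPM in the normoxic libraries to 0 to 3.02 CPM. Egflam, a basement membrane protein, fell by 0.79. Trpc6, a receptor-operated calcium channel of smooth muscle and pericytes, was the gene that rose, from 14.8 ± 6.01 to 35.4 ± 13.8 CPM (1.24). The list includes Cox4i2 but neither Pdgfrb nor Cspg4, and the summed level of its tested genes was 649 to 754 CPM in Normoxia and 496 to 577 CPM in Hyperoxia.

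SRF, its partners and other regulators were read as upstream genes of the programme. Of 16 tested, 3 were higher and 2 lower, against 11.8% and 10.8% of all genes tested, and the median was 0.03. Srf itself had 25.9 ± 11.2 CPM under normoxia and 25.0 ± 15.8 CPM under hyperoxia (log2 fold change -0.03, adjusted p = 0.981, edgeR). It was at 0 in Hyperoxia replicate 1, and without that library its log2 fold change was 0.22. Klf4, a repressor of contractile genes in cultured smooth muscle, rose by 0.69 on the log2 scale. Mef2c, a transcription factor of muscle and endothelium, fell by 0.88. The same 3 higher and 2 lower were counted without Hyperoxia replicate 1.

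Among 5 PDGF ligands and receptors tested, 1 was higher and 1 lower, also without that library, against 11.8% and 10.8% of all genes tested. Pdgfra, the receptor of lung fibroblasts, rose from 152 ± 23.5 to 348 ± 78.9 CPM (1.19, adjusted p = 0.000107, edgeR), while Pdgfa, its ligand, fell by 0.43. Pdgfb, the ligand of Pdgfrb, was at 31.9 ± 13.1 and 18.2 ± 10.7 CPM, and its log2 fold change of -0.78 did not pass the test (adjusted p = 0.203, edgeR). Pdgfd was at 6.66 ± 1.35 and 4.95 ± 2.79 CPM.

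The actin isoforms separated into directions. Acta2 and Actb, cytoplasmic β-actin, rose, the latter from 5117 ± 821 to 8055 ± 2063 CPM (0.65, adjusted p = 0.0140, edgeR). Actc1, cardiac α-actin, which is also on the list of cardiac markers below, fell from 27.3 ± 11.1 to 3.77 ± 3.64 CPM (-2.72, adjusted p = 0.000717, edgeR). Its normoxic range of 13.1 to 47.8 CPM and its hyperoxic range of 0.536 to 10.5 CPM did not overlap. Cytoplasmic γ-actin, Actg1, was at 820 ± 188 and 1366 ± 789 CPM and did not pass over all libraries (0.74, adjusted p = 0.316, edgeR). Hyperoxia replicate 1 held 43.4 CPM of it, against 1062 to 2080 CPM in the other hyperoxic libraries, and without that library Actg1 was higher by 0.99 and passed (adjusted p = 0.00162, edgeR). Skeletal Acta1 had too few counts to be tested. Actins are close relatives, although the 3′ ends that Quant-seq reads are the part in which they differ most, and kallisto divides reads that fit several transcripts by estimate.

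Of 9 nonmuscle counterparts tested, 2 were higher and 0 lower, against 11.8% and 10.8% of all genes tested, with a median of 0.35 (3 and 0 without Hyperoxia replicate 1). Myh9, nonmuscle myosin IIA, rose from 160 ± 35.7 to 352 ± 114 CPM (1.13, adjusted p = 0.00111, edgeR), and Actb was the other. Myh10, nonmuscle myosin IIB, had a log2 fold change of -0.49 (adjusted p = 0.0957, edgeR). The paralogs of the members gave 0.29 for Tagln2, 0.16 for Cnn2, 0.37 for Cnn3 and 0.35 for Tmod3, none of which passed. Without Hyperoxia replicate 1 these values were 0.52, 0.30, 0.13 and 0.39.

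**Figure D5:**
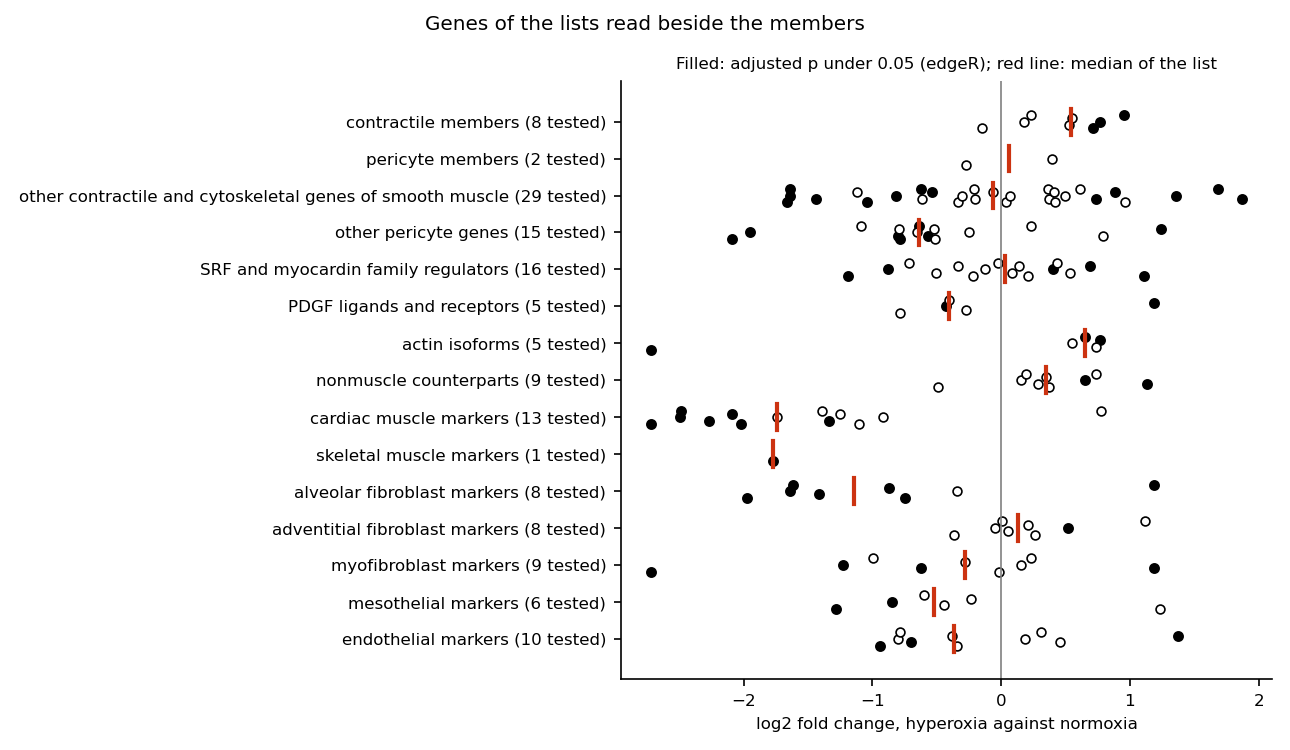
Each point is a tested gene of a list, at its log2 fold change of Hyperoxia against Normoxia (edgeR), filled where the adjusted p was under 0.05, with a red line at the list's median. Contractile members sit mostly to the right of 0, other contractile genes on both sides, and cardiac, alveolar fibroblast and other pericyte genes mostly to the left.

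Markers of other cells that express some of these genes were read beside them. Cardiac muscle, present around pulmonary veins, also makes desmin. Of 13 cardiac markers tested, 0 were higher and 7 lower, against 11.8% and 10.8% of all genes tested, with a median of -1.74 (0 and 7, with -1.52, without Hyperoxia replicate 1). Actc1, Myl4 (atrial myosin light chain, -2.49), Mb (myoglobin, -2.49) and Ckmt2 (mitochondrial creatine kinase, -2.02) had the smallest adjusted p. The summed level of the cardiac genes was 150 to 453 CPM in Normoxia and 26.3 to 538 CPM in Hyperoxia, with a hyperoxic median of 58.5 CPM. The highest sum, 538 CPM, was that of Hyperoxia replicate 6, in which Ttn (182 CPM), Tnnt2 (73.0 CPM) and Nppa (128 CPM) exceeded every normoxic library and Des was at 166 CPM. The part of cardiac muscle in the value of Des was not tested. Skeletal muscle markers were near 0, with 1 of 10 testable (Ckm, -1.78).

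The counts for fibroblast, mesothelial and endothelial markers stand beside 11.8% higher and 10.8% lower of all genes tested. Of 8 alveolar fibroblast markers tested, 1 was higher (Pdgfra) and 6 lower, with a median of -1.14 (1 and 7 without Hyperoxia replicate 1), led by Itga8, the sodium channel Scn7a (-1.62) and the transporter Slc7a10 (-1.42). Of 9 myofibroblast markers, which can carry Acta2 and Tagln, 1 was higher (Pdgfra) and 3 lower, with a median of -0.28 (also 1 and 3 without that library, with a median of -0.09). The 3 lower ones were Actc1, Mustn1 (-0.62) and Hhip, a hedgehog-binding protein, which fell by 1.23. The lists overlap, since Actc1 is also a cardiac marker here, and Mustn1 and Itga8 are among the other contractile genes. Of 8 adventitial fibroblast markers, 1 was higher (Igfbp4, 0.52) and 0 lower (2 and 1 without that library). Of 6 mesothelial markers, 0 were higher and 2 lower (1 and 3 without it). Lrrn4 and Upk1b were the 2 that fell (-1.28 and -0.85). Of 10 endothelial markers, 1 was higher (Egfl7, 1.37, and 0.83 without Hyperoxia replicate 1, where it was at 3335 CPM) and 2 lower (Tek, -0.94, and Tie1, -0.70), and 2 and 3 without Hyperoxia replicate 1. Of the alveolar fibroblast list the summed level was 2985 to 3596 CPM in Normoxia and 1856 to 2255 CPM in Hyperoxia, of the myofibroblast list 292 to 375 and 375 to 544 CPM (177 to 211 and 93.8 to 155 CPM without Pdgfra), of the adventitial list 1063 to 1340 and 1370 to 2075 CPM, of the mesothelial list 154 to 318 and 147 to 402 CPM, and of the endothelial list 3326 to 5712 and 2665 to 6062 CPM. Their part in the results for the members was not tested.

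The genes most like Acta2 after removal of each group's mean were Plcd4, Nkx6-2, Emc10, Atg2a and Uap1l1 (Pearson correlations of 0.92, 0.91, 0.91, 0.90 and 0.90 over the 13 libraries). None of them is a contractile gene listed here, and of the 5 only Plcd4 was still among the nearest 5 without Hyperoxia replicate 1, where Arap1 came first (0.92). For Pdgfrb the nearest were Podxl, Fhl1, Commd3, Nme2 and Snx3, each with 0.99. Podxl was the only one of these still among the nearest 5 without Hyperoxia replicate 1, when Gstk1 (0.98), Exosc2 (0.96), Podxl (0.96), Thra (0.95) and Atpif1 (0.95) were nearest.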

How the data were processed

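Quant-seq libraries of 13 lungs were compared, 7 Normoxia and 6 Hyperoxia, grouped by the sample titles. The labels do not state that each library is a separate mouse, so p-values measure the spread between these samples. The authors quantified reads with kallisto in BioJupies and deposited raw counts per gene symbol. The submitters' processing notes name mm10, kallisto and limma 3.54.2, and whether strand was used is not given in the sources used here. They also deposited log10 values, which equalled log10 of CPM plus 1 within 4.4e-16. All columns were mapped (0 left over). Replicate pairs of a group differed by more than sampling noise (chi-square per gene at least 3.79 over 36 pairs).

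Counts were tested with edgeR 4.0.16 in R 4.3.3 (TMM, filterByExpr, glmQLFit and glmQLFTest, Benjamini-Hochberg over 12496 genes, threshold 0.05). This replaced the limma test on CPM named in the study's methods, which was run as an alternative. Standard errors were derived from the fold change and the F statistic, and the log2 CPM used for correlations has a prior count of 2. Ratios were tested by exact permutation over samples. Depth was 1607111 to 4540288 counts per library, so a count of 3 corresponds to 0.656 to 1.84 TMM-scaled CPM. Alternatives were DESeq2 1.42.0, limma-voom and limma 3.58.1 on the deposited values, library size alone, DESeq2 size factors in edgeR, no filter, a minimum of 10 counts per library, a replicate block, the library set as a term or apart, other pseudocounts, and each library left out. Counts of the lists, the nearest genes and the ratios within set B to M without Hyperoxia replicate 1 were alternatives chosen after seeing the data. The fits were tested on simulated data.

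The members and lists were chosen with earlier results of these data known. Named were all members and Cox4i2, of every other list at most 4 genes with the smallest adjusted p, paralogs of members, Srf and Pdgfb, and the 5 genes nearest to Acta2 and Pdgfrb whose mean log2 CPM was 3 or more. Sftpc, Ttn, Tnnt2, Nppa, the genes overlapping Tagln, Des and Lmod1 and the nearest genes without Hyperoxia replicate 1 were named after their values were seen. Some results of the SRF list are not reported here. The labels do not say what the replicate numbers mean, and the main tests used no pairing. Gene coordinates are from GENCODE M21 (GRCm38), matched by symbol, and promoter windows from the RefSeq table of GRCm38.p6.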

Additional observations from a re-analysis of the deposited data

Results flagged for a closer look

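Among 26 sets of values examined, 3 held a library far from the others of its group by Dixon's criterion, where chance gives about 1.3. Pdgfrb in Hyperoxia replicate 1 was the lowest of its group at -0.59 log2 CPM, the value given to a count of 0. The log2 ratio of Acta2 to Pdgfrb in the same library was the highest of its group at 10.3. Cox4i2 in Normoxia replicate 6 was the lowest of its group at 2.10 log2 CPM. The first and the second of these share the same 0 count.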

How the results depend on the processing

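Des passed the test under all 11 other settings and Acta2 under 9, with Acta2 missing it, at a like size, with the replicate block (0.75, adjusted p = 0.0532, edgeR) and within set B to M (0.77). Cnn1 passed under 6 of 11. Over all genes 2819 passed, 1344 with the replicate block, 1159 within set B to M, 2738 within set O to S, and 2354 to 3592 with a library left out. The contractile members passing numbered 3, but 1 with the replicate block and 1 within set B to M, and 2 to 4 with a library left out. Their median log2 fold change stayed between 0.45 and 0.63 with a library left out. Pericyte members passing numbered 0 except for 1 (Cspg4) within set O to S. Same-numbered libraries had correlations of -0.37, 0.34, -0.27, -0.37, -0.07 and -0.15 after removal of each group's mean. Pairs 4 and 5 join libraries of different sets and pair 1 holds Hyperoxia replicate 1. These values therefore cannot settle whether the replicate number is a pairing. The Acta2 to Pdgfrb ratio was 2.05 with the replicate block (exact sign-flip test, p = 0.156), 3.25 within set B to M (0.82 without Hyperoxia replicate 1), 0.59 within set O to S and 0.78 to 2.40 with a library left out. The Acta2 to Cspg4 ratio was 1.00 within set B to M (1.19 without Hyperoxia replicate 1), -0.48 within set O to S and 0.27 to 0.60 with a library left out. Signs turned for Actg2 (-0.18) and Cspg4 (-0.10) within set B to M, for Myh11 (-0.32), Lmod1 (-0.27) and Pdgfrb (0.44) within set O to S, and for Myocd without Hyperoxia replicate 2 (0.0026, the highest of -0.31 to 0.0026 with a library left out). The cause of these changes was not tested. Low counts limit Rgs5 and Vtn. They also limit Actg2 and Myocd, which the filter of at least 10 counts in every library removed with Pdgfrb.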
